A study of Mus musculus with 29 samples.

Results

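The 10 wild-type libraries of the series were examined as a description of the healthy mouse aortic arch. They are 10 of 29 libraries and were chosen by their label alone, with no measured value used. The other 19 libraries come from mice lacking apolipoprotein E and infused with angiotensin II and were not used here. Each wild-type library came from a male C57BL/6 mouse whose age is labelled as 14 weeks, on normal diet and with no engineered allele named in the labels. An age of 13 weeks is also given, for when the mice were obtained. With 4 weeks of injections, whether 14 weeks was the age at collection is not settled here. These mice carried a pump filled with 100 µL of vehicle that released 0.11 µL/hr, and received weekly injections of vehicle for 4 weeks, so they were operated and injected and not untouched. The treatment text counts 9 wild-type mice against 10 libraries labelled wild type. In what follows n is therefore a number of libraries, which may include a second library of 1 mouse, and the spread between them may be partly technical. At collection the branch arteries were cut off at the arch, the lumen was flushed, and outer fat was scraped off with a swab. Libraries are named by the number in their title, 20 to 29.

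The aortic arch is an elastic artery. Its middle layer is made of smooth muscle cells between sheets of elastic fibres, its lumen is lined by endothelium, and its outer coat, the adventitia, holds fibroblasts, resident macrophages, nerves and, further out, fat. Smooth muscle cells of the large arteries both contract, through smooth muscle actin and myosin, and secrete most of the matrix of the wall. In tissue pieces of this kind the RNA of all these cells is mixed, so a lower level of a marker may mean fewer cells of that type or less RNA per cell, and these cannot be told apart.

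Levels are given in the deposited unit, FPKQ, which is scaled by gene length, so that genes may be compared with each other. Summed over all gene symbols, a library held 551480 to 605486 FPKQ. By the steps between low values, 1 FPKQ over a length of 2 kb corresponded to 34.8 to 43.7 sequenced fragments per library (median 39.1). Over 300 bases it corresponded to only 5.22 to 6.56 fragments. Sex-linked genes were examined against the labelled sex: Eif2s3y was at 47.5 ± 3.73 (SD, n = 10) and Xist, the X-inactivation RNA of female cells, at a mean of 0.0736. Libraries 20 and 21 stood apart from the other 8. They correlated with those at r = 0.956 to 0.983 over genes, against 0.982 to 0.992 among the other 8 and 0.989 with each other. The main axis of variation, with 44.3% of the variance between libraries, had loadings of 0.66 and 0.49 in libraries 20 and 21 and between -0.41 and 0.05 in the rest. They also had the fewest fragments per FPKQ over 2 kb, 35.7 in library 20 and 34.8 in library 21. Library 20 had the fewest genes at 1 or more (12558) and the most listed at 0 (30278). The part of depth in how these libraries differ was not tested. That they stand apart was seen in the data, and results resting on them are given with and without them.

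The arch expressed a broad but top-heavy set of genes, led by contractile and matrix genes of smooth muscle. Of the genes with a mean of at least 1 (12763 without 7 models set apart next), 6409 reached a mean of 10, 779 reached 100 and 41 reached 1000. The 354 to 420 highest genes made up 50% of the sum in a library, and the 10 highest held 10.9 to 12.1% of it. Protein-coding genes held 93.7% ± 0.392 (SD, n = 10) of the sum, and the 85 ribosomal protein genes 9.80% ± 0.467. These shares leave out 7 gene models on chromosome 1, Gm29216, Gm28661, Gm28437, Gm10925, Gm28439, Gm28438 and Gm10222, whose sequence copies the mitochondrial genome. They lie side by side between 24611535 and 24616197 on GRCm38 and had means of 3026 to 20569. Together they held 13.2 to 19.8% of a library's whole sum, highest in library 28. The files list no mitochondrial gene under its own symbol, so these values may count reads that match both places. This was not tested, since no reads were examined. Gm13340 on chromosome 2, with 46.6% of its sequence shared and a mean of 1058, fell just short of the 50% that set such models apart.

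Apart from these copies, Acta2, smooth muscle actin, was the most abundant gene. Its lowest value was 8543, its median 9502 and its highest 11570, a mean of 9690 ± 917 (SD, n = 10). It lies on chromosome 19, 34241090 to 34255590. Mgp, matrix Gla protein, a secreted inhibitor of calcification, ranked second at 6865 ± 694, and the lowest library still held 6008. Myl6, a myosin light chain, followed at 6649 ± 527, Tmsb4x, which binds free actin, at 6106 ± 647, and Tagln, an actin-binding protein of smooth muscle, at 5766 ± 250. The ranges of Mgp (6008 to 7790), Myl6 (6218 to 7790) and Tmsb4x (5378 to 7240) overlap, so the order of these neighbours is not resolved by the spread between libraries. Acta2 stood above all of them in every library, since its lowest value exceeds their highest.

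The next ranks mixed the contractile machinery with matrix and housekeeping genes. Myl9, the regulatory myosin light chain, had a mean of 4814 ± 354 (SD, n = 10), Dstn, which severs actin filaments, 2590 ± 178, Tpm2, a tropomyosin, 2261 ± 125, and Csrp1, a smooth muscle LIM protein, 1525 ± 76.8. Among secreted proteins, Bgn, the proteoglycan biglycan, reached 4124 ± 194, Igfbp7, which binds growth factors, 2869 ± 314, Cst3, a cathepsin inhibitor, 1848 ± 113, and Sparc, a collagen-binding glycoprotein, 1823 ± 124. Vim, the intermediate filament vimentin, was at 3335 ± 141, Fth1, the ferritin heavy chain, at 3206 ± 147, Eef1a1, a translation factor, at 3065 ± 159, Cpe, a carboxypeptidase of secretory granules, at 1752 ± 60.1, and Rps24, a ribosomal protein, at 1586 ± 125. AY036118 (4907 ± 947) and Gm42418 (1881 ± 290) are overlapping long non-coding models on chromosome 17, at 39847113 to 39848035 and 39846958 to 39848788. This stretch is known to match ribosomal RNA, so their values may count reads of it. They were the 2 genes with the widest spread among the highest 20.

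**Figure D1:**
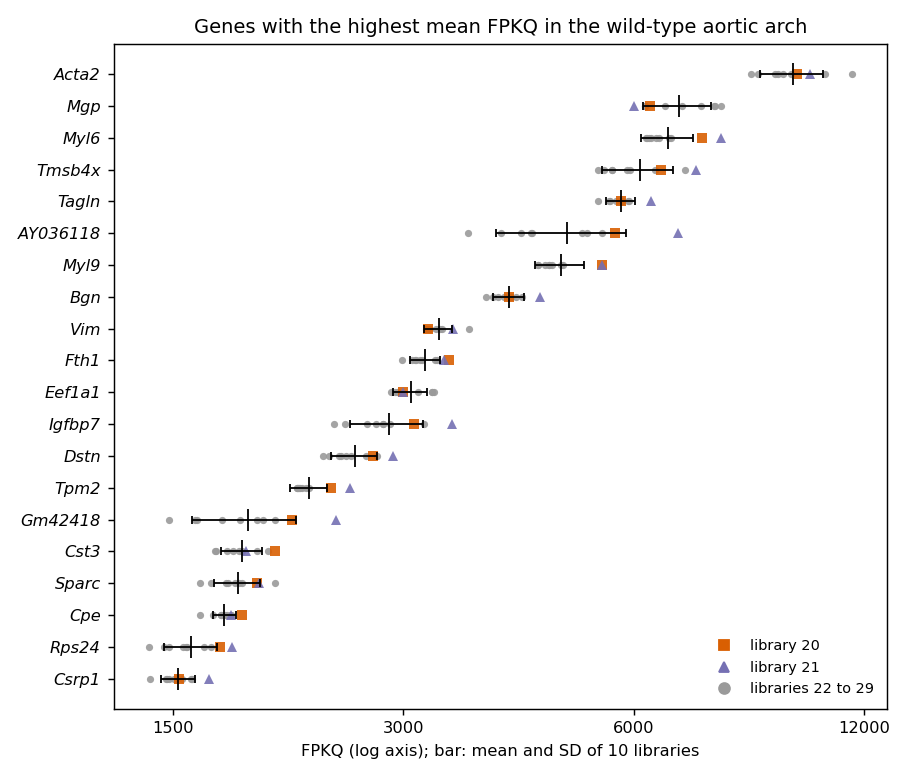
FPKQ (log axis) of the 20 genes with the highest mean (mitochondrial copies left out), 1 point per wild-type library, with the mean and SD of the 10 libraries as black bars and libraries 20 and 21 marked. Acta2 lies between 8543 and 11570, above every value of the other genes, and most genes span a narrow range.

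Contractile smooth muscle genes formed the most abundant cell-source list and one of the steadiest. All 26 listed genes reached a mean of 1 and 21 reached 100. Together they held 6.77% ± 0.368 (SD, n = 10) of the summed FPKQ, from 6.27% in library 28 to 7.28% in library 22. This share and those of all lists have the mitochondrial copies in the sum, and without them the contractile share was 8.01%. The summed FPKQ of the list itself was highest in library 21. Myh11, the smooth muscle myosin heavy chain and a marker of differentiated cells, was at 1196 ± 65.2, with a range of only 1097 to 1296. Cnn1, calponin, was at 828 ± 62.1, Smtn, smoothelin, at 562 ± 64.4, and Itga8, an integrin subunit of smooth muscle, at 642 ± 82.3. Des, the muscle intermediate filament desmin, was lower at 37.6 ± 7.34, and Myocd, the coactivator that drives this programme, at 12.1 ± 2.33. Between libraries the median SD of log2(FPKQ + 1) in the list was 0.13, against 0.14 over all 12770 genes with a mean of at least 1. The threshold used here for a variable gene was an SD of at least 0.5. Over all those genes 438, or 3.43%, passed it, and in the contractile list 1 of 26 did. Without libraries 20 and 21, 233 of the 12770 genes passed it. These counts over all genes are the background for each list below. Of the 26, 13 had their highest value in library 20 or 21, against 31.3% of all genes. The 1 variable gene of the list was Pln, phospholamban, a calcium pump regulator that the heart muscle list also holds. It ranged from 2.48 in library 20 to 20.4 in library 27.

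Smooth muscle genes are known to be driven by serum response factor, which binds a sequence called the CArG box. Promoter sequences were taken from RefSeq on GRCm38.p6, from 250 bases before to 50 after each start, and 21 of the 26 genes had an entry; Tagln and Myh11 had none. An exact CArG box on either strand was found in 3 of the 21, Myl6, Myl9 and Vcl, against 1.81% of all 27025 genes with an entry. Vcl, vinculin, links actin to adhesion sites and had a level of 134 ± 17.3 (SD, n = 10). The stretches around all 3 sites are shown, with the box in capitals, because 2 of them precede genes among the 10 most abundant. They lie at chr10:128493020-128493089 on the minus strand for Myl6, chr2:156775273-156775342 on the plus strand for Myl9 and chr14:20929148-20929210 on the plus strand for Vcl.
Myl6: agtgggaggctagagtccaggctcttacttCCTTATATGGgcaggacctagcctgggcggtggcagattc
Myl9: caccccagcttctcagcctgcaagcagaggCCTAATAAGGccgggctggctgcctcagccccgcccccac
Vcl: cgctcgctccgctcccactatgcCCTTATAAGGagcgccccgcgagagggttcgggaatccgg
The box begins 50 bases before the start of Myl6, 161 before that of Myl9 and 227 before that of Vcl. No exact box lies in the window used here for Acta2 or Cnn1, which says nothing of sites elsewhere or of less exact ones.

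Matrix genes of the wall were abundant and mostly steady. The 28 proteoglycans and matrix glycoproteins held 3.21% ± 0.142 (SD, n = 10) of the sum, the 25 collagens 0.522% ± 0.0356 and the 17 elastic fibre genes 0.539% ± 0.0571. The collagens Col1a2 (508 ± 24.7), Col18a1 (502 ± 40.7) and Col3a1 (404 ± 39.8) were highest, and 0 of the 22 collagens with a mean of at least 1 passed the threshold of variability. The cartilage collagen Col2a1 had a mean of 0.134. Postn, periostin, was at 964 ± 85.7. Of the elastic fibre genes, Mfap4 (685 ± 46.4), Fbln5 (378 ± 26.9) and Ltbp4 (234 ± 13.5), which bind or help assemble elastin and fibrillin, had SDs of log2 of 0.08 to 0.10. Eln, tropoelastin itself, spread more: its lowest value was 449.5, its median 781 and its highest 1326, with an SD of 0.47. Lox, the enzyme that cross-links elastin and collagen, was the 1 variable gene of the 16 elastic fibre genes with a mean of at least 1. It ranged from 32.9 to 88.3 with a median of 55.5. Both Eln and Lox were lowest in library 26 and highest in library 22. Ctgf (495 to 1354, median 747) and Cyr61 (60.1 to 231, median 93.3), secreted proteins of the CCN family, were the 2 variable genes among 28 in the glycoprotein list, and both were also highest in library 22.

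Endothelial genes were detected at low to moderate levels. Of 25 listed genes 24 reached a mean of 1, and the list held 0.194% ± 0.0739 (SD, n = 10) of the sum. Pecam1, a junction protein of all endothelium, was at 82.5 ± 16.7, Eng, a co-receptor for transforming growth factor beta, at 39.6 ± 6.33, and Cdh5, the endothelial cadherin, at 9.98 ± 3.88. The highest listed gene was Fabp4, a fatty acid carrier, which ranged from 146 to 1497 with a median of 748. The summed FPKQ of the whole list ranged from 446 to 2024 with a median of 1189. Fabp4 alone thus made up a large part of it. Cd36, a fatty acid uptake receptor, ranged from 5.61 to 97.2 with a median of 62.6. Both are also expressed by adipocytes, and both were lowest in library 20 and highest in library 28, as most adipocyte genes were. The share of the list and its range are therefore not a measure of endothelium alone. In the list 6 of 24 genes were variable (Fabp4, Cd36, Cdh5, Emcn, Kdr and Robo4), all 6 lowest in library 20, and without libraries 20 and 21 none of the 24 was. Of the 24, 18 had their lowest value in library 20 or 21, against 26.1% of all genes, and 12 their highest in library 28, against 11.1%. Pecam1 was among the others, lowest in library 24 at 56.1.

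Fibroblast genes made up a larger share, 0.727% ± 0.132 (SD, n = 10), and all 22 listed genes reached a mean of 1. Gsn, gelsolin, was at 855 ± 164 and Dcn, the proteoglycan decorin, at 820 ± 215. Pdgfra, a growth factor receptor that marks adventitial fibroblasts, was at 15.8 ± 3.23, with a lowest value of 10.2, a median of 15.4 and a highest of 21.99. Dpt, dermatopontin, a small matrix protein, ranged from 57.2 in library 21 to 207 in library 23, and was 1 of 2 variable genes of the list; Tcf21, a transcription factor, was the other. Without libraries 20 and 21, 0 of the 22 were variable. Fibroblast genes had their lowest value in library 20 or 21 in 19 of 22 cases, against 26.1% of all 12770 genes, and library 21 held the list's lowest sum, 2826. Only 1 of the 19 was lowest in library 20, whose sum of 3775 was close to the lowest of the other 8, 3780.

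Macrophage genes followed the same libraries at lower levels. Of 24 listed genes 22 reached a mean of 1, together 0.0681% ± 0.0205 (SD, n = 10) of the sum. Lyz2, lysozyme, ranged from 54.0 to 185 with a median of 116, and C1qa, a complement subunit made by resident macrophages, from 14.9 to 53.7 with a median of 39.4. Both were lowest in library 21 and highest in library 23. All 22 had their lowest value in library 20 or 21, against 26.1% of all genes, and 21 of them had it in library 21. Folr2 and C1qa were the variable genes of the list, and neither was so without libraries 20 and 21. Markers of lymphocytes were near 0: in the list for T and NK cells only Thy1, which fibroblasts and nerves also express, reached a mean of 1, and Cd3e was at 0.0622. Among B cell and plasma cell genes Cd79a was at 0.29, while Ighm, the immunoglobulin mu chain, was at 6.12 ± 1.75 and Xbp1, a secretory pathway factor of many cells, at 85.9 ± 17.8.

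Mast cell genes were low but clear, and neutrophil genes were not. Mcpt4, a mast cell chymase, ranged from 1.53 to 10.7 with a median of 9.48, and Cma1, another chymase, Tpsb2, a tryptase, and Cpa3, a carboxypeptidase, had means of 4.39 to 4.79. These 4 genes were variable, of 5 in the neutrophil and mast cell list with a mean of at least 1, against 3.43% of all genes. Each was lowest in library 20, with library 21 next, and none of them was variable without these libraries. Over all genes, 26.1% were lowest in library 20 or 21. The neutrophil genes S100a8 and S100a9 had means of 0.706 and 0.954, and Mpo of 0.00207. Red cell transcripts remained after flushing: Hbb-bs, a beta globin, ranged from 183 to 474 with a median of 289, and the platelet gene Ppbp had a mean of 0.919. The globin genes are close copies of each other, so counts may be split between them. Of 9 pericyte genes 8 reached a mean of 1, led by Rgs5, a signalling regulator that arterial smooth muscle also expresses, at 306 ± 52.5 (SD, n = 10); Higd1b, a more selective pericyte gene, was at 0.727.

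Nerve was a small and steady source. The nerve and Schwann cell list held 0.0494% ± 0.00351 (SD, n = 10) of the sum, and 12 of its 18 genes reached a mean of 1. Most of that sum was Pmp22 (163 ± 11.1) and Ncam1 (74.8 ± 10.8), a membrane and an adhesion protein that are not confined to Schwann cells. Mbp, a myelin protein, was low at 2.67 ± 1.003, and Sox10, which defines the lineage, had a mean of 0.705. Here 0 of 12 genes were variable. Of 15 sympathetic and neuronal genes only Uchl1 (108 ± 10.7) and Stmn2 (1.97 ± 0.845) reached a mean of 1. Th and Dbh, which make noradrenaline, had means of 0.116 and 0.004.

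Tissues next to the arch left little or no trace apart from fat and heart. None of 14 thyroid, parathyroid and airway genes reached a mean of 1, and Pth and Pax8 were listed at 0 in every library. In the thymus list Rag2 and Foxn1 were listed at 0 and Rag1 was at 0.0103, and the 2 genes above 1 were Cd1d1 and Ccl25. Cd1d1, which presents lipids, was among the 10 genes whose pattern was most like that of the fat hormone gene Adipoq. Mesothelium had Krt18 (15.5 ± 2.89; SD, n = 10), a keratin, but Msln, which defines it, at only 0.908. Of 15 cartilage genes 6 reached a mean of 1, led by Comp (17.1 ± 2.14) and Acan (11.97 ± 1.72), matrix proteins that the arterial wall itself makes, while Matn1 was at 0.00788. Of 18 skeletal muscle genes 5 reached a mean of 1, and 2 of these were variable. Casq1, a calcium store protein, was at 72.2 ± 13.6, Myl1, a fast myosin light chain, at 9.34 with an SD of log2 of 1.02, and Ckm, muscle creatine kinase, at 4.47 with an SD of 0.59. Myh4 and Mybpc1 were listed at 0 and Acta1 was at 0.105.

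**Figure D2:**
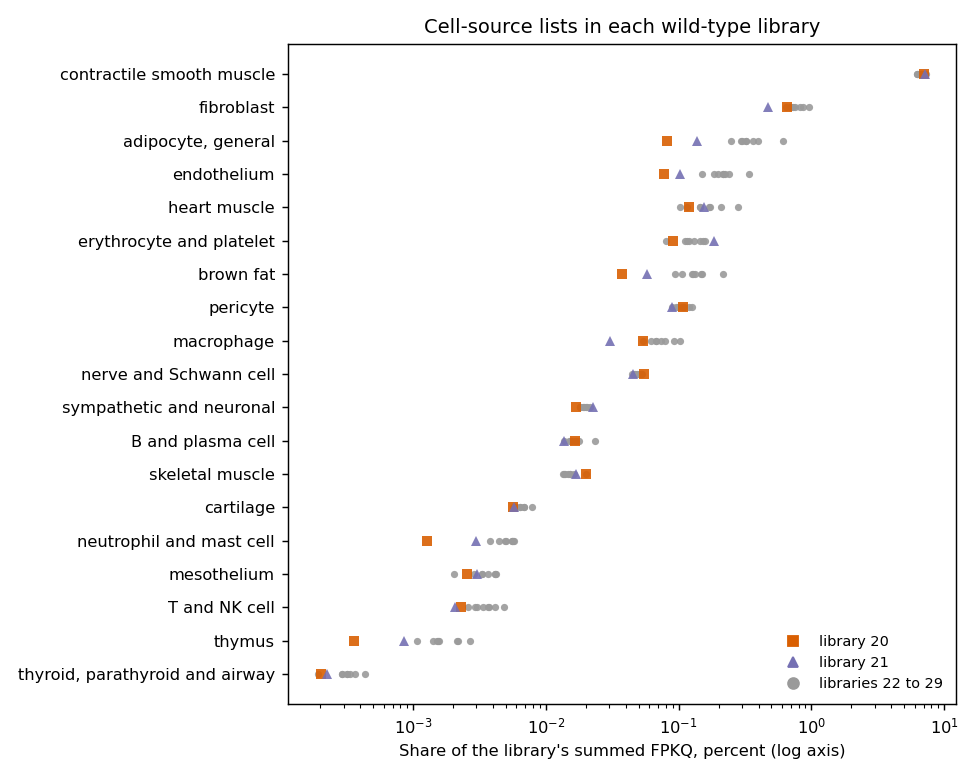
Share of each library's summed FPKQ, in percent on a log axis, held by 19 cell-source lists in the 10 wild-type libraries, with libraries 20 and 21 marked. The contractile smooth muscle list lies at 6.27 to 7.28% in every library, while the adipocyte list runs from 0.0815% in library 20 to 0.612% in library 28.

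The share of fat genes differed widely between libraries. The general adipocyte list held 0.307% ± 0.144 (SD, n = 10) of the sum, from 0.0815% in library 20 to 0.612% in library 28, and its summed FPKQ differed 7.73-fold between them. Adipoq, the hormone adiponectin, which only adipocytes are known to make in quantity, was at 3.85 in library 20 and 19.4 in library 21. In the other 8 libraries it lay between 40.1 and 139.9, so both libraries were below all others. Cfd, the protease adipsin, ranged from 27.5 to 619 with a median of 298, Car3, a carbonic anhydrase of fat, from 26.03 to 636 with a median of 300, and Scd1, a fatty acid desaturase, from 40.7 to 856 with a median of 321. Dgat2, the last enzyme of triglyceride synthesis, was the most variable member, from 2.50 to 113, with an SD of 1.43. Of 19 genes with a mean of at least 1, 16 were variable and 18 had their lowest value in library 20 and 18 their highest in library 28. Over all genes, 3.43% were variable, 11.1% were highest in library 28 and 26.1% were lowest in library 20 or 21. Without libraries 20 and 21, 7 of 19 were variable. The exception was Plin4, a lipid droplet coat protein also found in muscle, which was highest in library 20, at 218, and between 119 and 151 in libraries 22 to 29.

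Brown fat genes were present as well. Ucp1, the uncoupling protein that makes heat in brown fat and defines it, lies on chromosome 8, 83290352 to 83298452. It ranged from 6.60 in library 20 to 252 in library 28, with a median of 151, and ranked 531 of all genes by its mean of 142 ± 82.3 (SD, n = 10). Cox8b, a respiratory subunit of brown fat and striated muscle, ranged from 8.86 to 310.2 and Cidea, a lipid droplet protein of brown fat, from 20.3 to 215. All 16 listed genes had a mean of at least 1. Of these, 9 were variable, against 3.43% of all genes, and 4 without libraries 20 and 21. Prdm16, a transcription factor of brown fat that other cells also express, was not variable, with a range of 11.7 to 17.3. Some of the brown fat genes had patterns like that of Adipoq. Of the 16, 8 had an r of at least 0.9 with it over the 10 libraries, and 4 also without libraries 20 and 21. In the general list 14 of 18 other genes did, and 9 also without these libraries. Of the 10 protein-coding variable genes most like Adipoq, by Pearson's r on log2(FPKQ + 1) over the 10 libraries, Cox7a1 and Cox8b were brown fat genes and Slc36a2, Plin1, Dgat2, Car3 and Cfd were in the general list. The r of all 10, which were picked by it, was 0.990 to 0.996, and 0.919 to 0.979 without libraries 20 and 21.

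Heart muscle genes also varied widely, with most of their highest values in another library than those of fat. Of 25 listed genes 17 reached a mean of 1. Of these, 13 were variable with or without libraries 20 and 21, against 3.43% of all genes over the 10 libraries. The genes characteristic of atrial muscle were present. Myl7, the atrial light chain, ranged from 0.424 in library 25 to 103 in library 27 with a median of 12.3. Myl4, another atrial light chain, ranged from 5.40 to 111 in the same libraries. Sln, sarcolipin, a calcium pump regulator of atria, ranged from 0.0759 to 23.4. The ventricular genes were at or near 0: Myl2 had a mean of 0.0469, Myh7 of 0.0554 and Myl3 of 0.39. Myh6, the alpha myosin heavy chain, on chromosome 14, 54941921 to 54966927, ranged from 0.125 to 25.98 with a median of 3.16. Mb, myoglobin, had the largest SD of all genes, 2.00, with a lowest value of 0.954, a median of 9.13 and a highest of 109. In the list, 11 of 17 genes were highest in library 27, against 6.86% of all genes.

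The listed heart genes with the highest means were not those with the widest spread. Tcap, telethonin, which caps titin in striated muscle, was at 375 ± 146 (SD, n = 10), with a lowest value of 137 in library 22 and a highest of 607 in library 29. Hspb7, a small heat shock protein, was at 342 ± 35.5 and ranged only from 284 to 394. Tnnt2, cardiac troponin T, ranged from 13.1 to 120.4, and Actc1, cardiac actin, from 0.849 to 83.4. Nppa, the atrial natriuretic peptide, reached 14.5 in library 28 but only 1.38 in library 27, where the other atrial genes peaked, and was listed at 0 in 2 libraries. Outside the list, Tnnc1, cardiac troponin C (0.310 to 23.1), and Cox6a2, a respiratory subunit of striated muscle (0.0735 to 18.02), were among the 20 most variable genes and had r of 0.98 and 0.99 with Myh6 over the 10 libraries. These r values are a description, since they share the same libraries and 1 high library weighs in all of them.

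**Figure D3:**
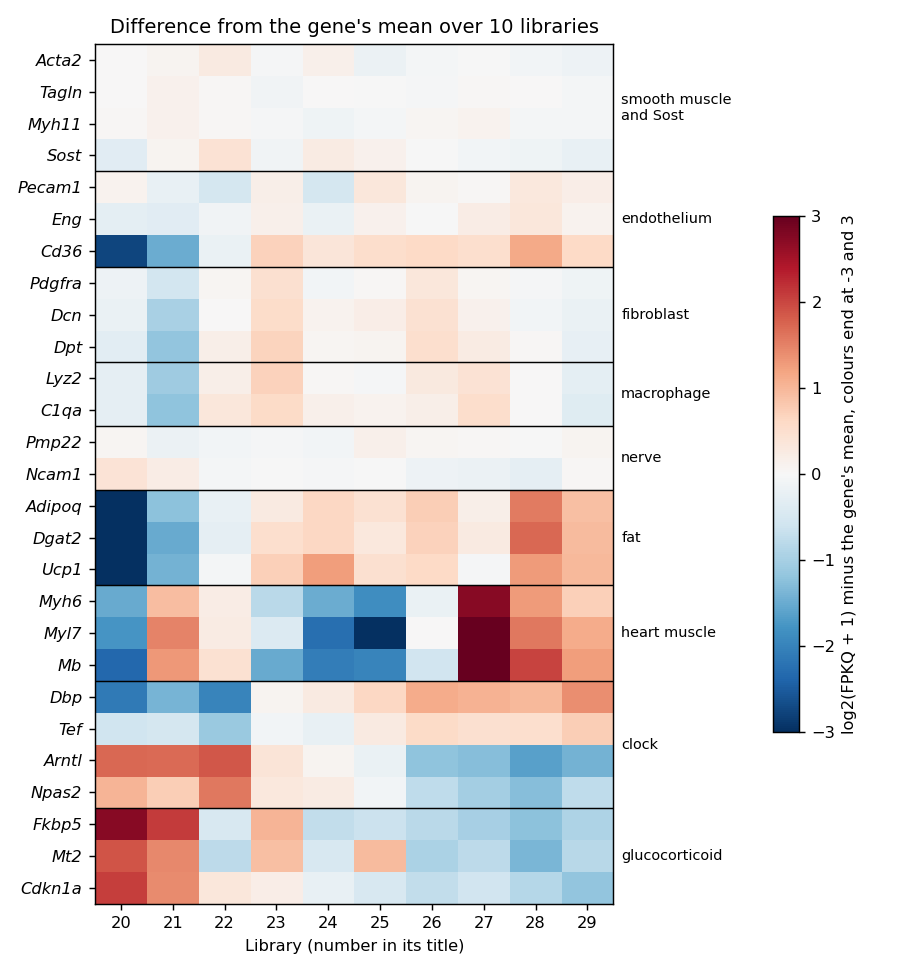
Difference of log2(FPKQ + 1) from each gene's mean over the 10 wild-type libraries, for 27 named genes grouped by source (columns are libraries, colours end at a difference of 3 in either direction). Fat genes are low in libraries 20 and 21, heart muscle genes peak in library 27, and Acta2, Tagln and Myh11 stay close to their means.

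Across all genes most of the spread was small. The median SD was 0.14, 89 genes had an SD of at least 1, and among the 438 variable genes 320 were protein coding and 41 were processed pseudogenes. At the threshold, Tob2 and 9130214F15Rik were just inside with SDs of 0.5003 and 0.5002, and Galnt15 was just outside at 0.4986. Variable genes had their lowest value in library 20 in 195 cases and in library 21 in 53, and their highest in library 28 in 155 cases. Over all 12770 genes, 26.1% were lowest in library 20 or 21 and 11.1% highest in library 28. Without libraries 20 and 21, 233 genes were variable, of which 216 were among the 438. The 20 most variable genes were of a few kinds. Mb, Myl7, Actc1, Sln, Myh6, Cox6a2 and Tnnc1 are heart muscle genes, Ucp1 and Dgat2 are fat genes, and Fkbp5 and Arntl are described below. Apoc1, an apolipoprotein (2.98 to 164), and Cyp2e1, a cytochrome P450 found in liver and fat (4.23 to 141), were both lowest in library 20 and highest in library 28. The remaining 7, Rpl36a-ps2, Gm37401, Gm17122, Rn7s2, Gm12918, Rps13-ps2 and Pdcd5-ps, are short pseudogene, antisense or RNA models of 300 to 636 bases. At their means they stood for 20.8 to 364 fragments. Each except Gm12918 was listed at 0 in at least 1 library. The pseudogenes share sequence with their parent genes, so these values are uncertain.

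The steadiest of the 500 most abundant genes were Rarres2, the secreted attractant chemerin (374 ± 6.71, SD of log2 0.03; n = 10), and Rps3, a ribosomal protein (453 ± 10.6, SD 0.03). Ilk, an integrin-linked adhesion protein, H3f3a, a histone, and Gnas, a G protein subunit, had SDs of 0.04.

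**Figure D4:**
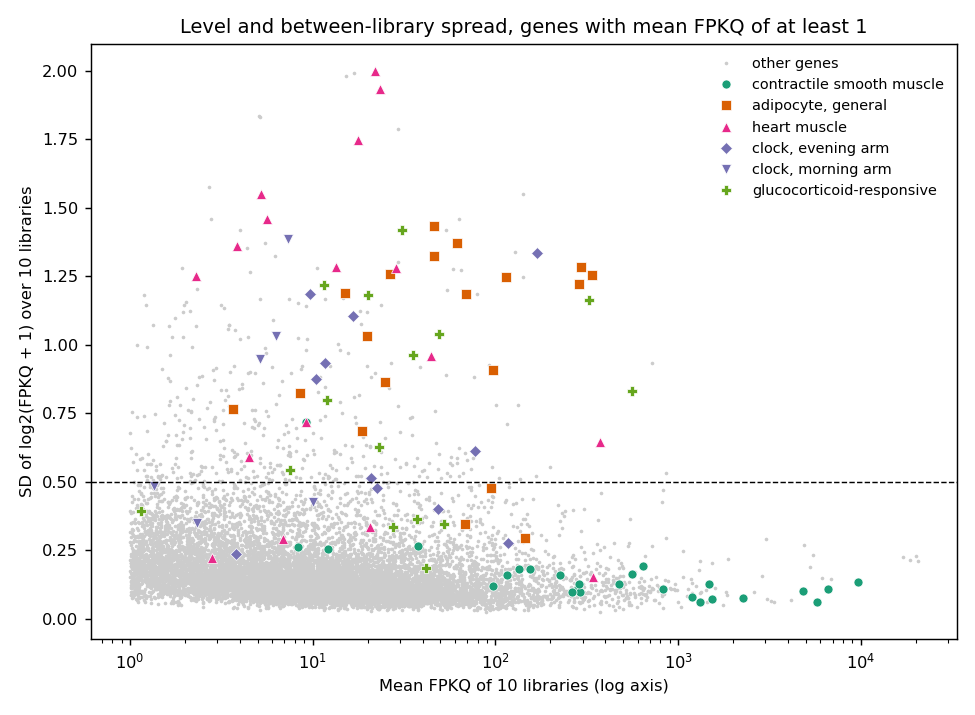
SD of log2(FPKQ + 1) over the 10 wild-type libraries against mean FPKQ (log axis) for 12770 genes, with members of 6 lists coloured and the threshold of 0.5 dashed. Contractile genes lie low and to the right, and most adipocyte, heart muscle and clock genes with large SD lie above the threshold.

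Genes of the circadian clock differed widely between libraries. The clock is a feedback loop in which the factors Arntl (BMAL1), Clock and Npas2 switch on genes through the E-box, among them the period genes, Ciart, the nuclear receptors Nr1d1 and Nr1d2, and the output factors Dbp, Tef and Hlf; Nr1d1 and Nr1d2 in turn repress Arntl and Npas2. Of 11 genes in the list of the evening arm, the E-box targets, 7 were variable, against 3.43% of all genes. Without libraries 20 and 21, 8 of the 11 were. Dbp ranged from 27.96 to 333 with a median of 171, Per3 from 3.20 to 32.4 with a median of 15.5, and Ciart, a repressor of Arntl and Clock, from 1.17 to 25.6 with a median of 8.41. Tef ranged from 32.6 to 119.8, Hlf from 3.39 to 20.4 and Bhlhe41, another repressor, from 2.98 to 17.8. Nr1d1 moved less, from 82.0 to 141, and Usp2, a protease, had an SD of 0.24. In the morning arm 3 of 6 genes were variable, with or without these libraries: Arntl ranged from 0.795 to 19.1, Npas2 from 1.102 to 14.2 and Nfil3, a repressor of the output genes, from 1.59 to 16.4. Clock itself stayed between 6.16 and 15.2. The time of day of collection is not given in the labels.

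On Dbp and Arntl the libraries fell into separate clusters. In libraries 20, 21 and 22 Dbp was at 27.96, 47.1 and 31.04 while Arntl was at 17.4, 16.998 and 19.1. In libraries 23, 24 and 25 Dbp was at 132, 151 and 192 and Arntl at 6.26, 4.84 and 3.82. In libraries 26 to 29 Dbp lay between 248 and 333 and Arntl between 0.795 and 1.40. Dbp and Arntl thus had opposite orders between these clusters. None of them holds 6 libraries, so no r is given for this pair and the relation could not be tested within a cluster. Numbers in the titles are names here, and what they stand for is not given.

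The E-box, here CACGTG, was searched on both strands in the RefSeq promoters of both arms. In the evening arm 4 of 10 genes with an entry held it (Per1, Ciart, Tef and Bhlhe41), and in the morning arm 1 of 5 (Cry1), against 8.09% of all 27025 genes with an entry and 11.8% of the 9442 of these with a mean of at least 1. The D-box, TTATGTAA on either strand, through which Dbp, Tef and Hlf activate and Nfil3 represses, was found in 1 of 10 evening genes (Per3, at 2 places) and in 0 of 5 morning genes, against 1.11% of all. The stretches are shown 5′ to 3′ along the gene with the motif in capitals. On GRCm38.p6 they are chr11:69098753-69098818 (plus) for Per1, chr3:95882237-95882374 (minus) for Ciart, chr15:81802516-81802581 and chr15:81811246-81811311 (plus) for the 2 starts of Tef, chr6:145865538-145865603 (minus) for Bhlhe41, chr10:85185079-85185144 (minus) for Cry1 and chr4:151044786-151044900 (minus) for Per3.
Per1: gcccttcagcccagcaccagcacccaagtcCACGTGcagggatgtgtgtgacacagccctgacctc
Ciart: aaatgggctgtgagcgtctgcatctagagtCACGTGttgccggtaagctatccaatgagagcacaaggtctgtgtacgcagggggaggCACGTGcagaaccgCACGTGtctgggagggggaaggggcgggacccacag
Tef, upstream start: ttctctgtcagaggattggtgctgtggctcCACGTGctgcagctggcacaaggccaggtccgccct
Tef, downstream start: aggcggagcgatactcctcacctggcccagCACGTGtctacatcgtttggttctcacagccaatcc
Bhlhe41: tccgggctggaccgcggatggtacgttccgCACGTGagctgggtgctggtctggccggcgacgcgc
Cry1: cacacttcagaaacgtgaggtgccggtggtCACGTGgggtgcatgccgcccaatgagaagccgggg
Per3: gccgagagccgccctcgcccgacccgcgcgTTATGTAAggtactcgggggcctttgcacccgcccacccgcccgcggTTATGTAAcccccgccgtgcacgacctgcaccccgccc
Ciart, with an SD of 1.19, held 3 E-boxes within 116 bases of its start, while Per1, whose single E-box lies 166 bases before the start, had an SD of 0.51. No exact E-box lies in this window for Dbp, the most variable gene of the arm. A match is a description of the letters and not a binding site.

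Glucocorticoid-responsive genes were highest in library 20. Fkbp5, a chaperone that glucocorticoids induce strongly, was at 123 in library 20, 79.3 in library 21 and 37.0 in library 23, and between 6.94 and 12.5 in the other 7. Mt1 and Mt2, the metallothioneins, which bind metal ions, ranged from 271 to 1326 (median 355) and from 92.8 to 886 (median 156). Cdkn1a, an inhibitor of the cell cycle, ranged from 15.6 to 159 with a median of 29.04. All 15 listed genes had a mean of at least 1. Of these, 10 were variable, against 3.43% of all genes, and 6 without libraries 20 and 21. In 13 of 15 the highest value was in library 20 or 21, against 31.3% of all genes. The summed level of the list ran from 596 in library 28 to 3072 in library 20, with 2145 in library 21. The exceptions were Pdk4, a brake on glucose use that was highest in library 28, and Lcn2, lipocalin. Of the genes outside the list, Map3k6, a stress kinase (4.89 to 21.2), and Bcl2l1, which protects cells from death (25.1 to 80.6), were among the 10 variable genes most like Fkbp5.

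Genes of acute responses spread moderately. Of 22 immediate early genes 4 were variable: Fos (10.4 to 71.3, median 35.0), highest in library 22, and Fosb, Nr4a1 and Atf3. Fos and Fosb are each a subunit of AP-1 factors, and Nr4a1 is an inducible nuclear receptor. Atf3, a stress factor, ranged from 7.25 to 37.7 with its highest value in library 24. In all, 4 of the 22 were highest there, against 11.2% of all genes. Of 15 heat shock genes 10 were highest in library 24, against 11.2% of all genes, and 1, Hsph1 (17.97 to 54.7), was variable. Hspa8, the main cytosolic chaperone, was at 1009 in library 24 and between 419.7 and 608 in the others, and Hspa1a, an inducible one, at 38.5 there and between 15.4 and 21.1 elsewhere. Of 16 interferon-stimulated genes with a mean of at least 1, only Ifit3 (3.73 to 21.8) and Ifit3b (0.522 to 6.99) were variable. They are close copies of each other, and reads may be split between them. Bst2, tetherin, was the highest of the list at 27.9 ± 1.67 (SD, n = 10).

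Sost encodes sclerostin, the Wnt inhibitor studied in this series, and was itself an abundant arterial gene. It ranked 84 by mean, at 655 ± 108 (SD, n = 10), with a lowest value of 509 in library 20, a median of 628 and a highest of 876 in library 22. It lies on chromosome 11, 101962458 to 101967015. Its SD of log2 was 0.23, below the threshold. Of its receptors, Lrp5 (15.3 ± 2.18) and Lrp6 (15.2 ± 1.18) were at similar levels, with overlapping ranges, and Lrp4, which anchors sclerostin in bone, had a mean of 0.942. Other Wnt antagonists were Dkk3 (251 ± 15.2), Sfrp2 (174 ± 26.7), Sfrp4 (46.4 ± 27.2) and Wif1 (35.3 ± 6.33), while Dkk1 was at 0.111. Sfrp4, which binds Wnt proteins, was the 1 variable gene of 10, from 18.7 in library 21 to 98.6 in library 23.

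Hox genes record position along the body axis, and those with low numbers mark anterior tissues. Of 30 listed genes 14 reached a mean of 1, with numbers from 1 to 8. Hoxa3 was highest at 23.8 ± 3.08 (SD, n = 10), then Hoxb2 (14.3 ± 2.66) and Hoxa2 (13.03 ± 2.02), and Hoxb8 was at 2.33 ± 0.408. Hoxa9 had a mean of 0.357, Hoxa10 of 0.0653, and Hoxc10 was listed at 0. None of the 14 was variable. Proliferation genes were low: 9 of 21 reached a mean of 1, and Mki67 was at 0.324 and Top2a at 0.469, against 35.2 ± 1.60 for Pcna, which also acts in DNA repair. Of 22 nuclear-encoded respiratory chain genes, led by Cox4i1 (423 ± 31.2), none was variable, but 21 were highest in library 28, against 11.1% of all genes, and 17 lowest in library 20 or 21, against 26.1%. Library 28 also held the largest share of the mitochondrial copies, 19.8%, and the highest adipocyte sum. The part of fat in the respiratory values was not tested.

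Of 14 pairs of single genes chosen to set 1 source or programme against another, 2 had an adjusted p under 0.05 over the 10 libraries (Pearson's r on log2 values, 100000 permutations, two-sided, Benjamini-Hochberg over the 14). They were Dbp with Arntl and Adipoq with Ucp1. The permutation treats the libraries as independent, and on Dbp they are clustered as described above. The p of a pair with Dbp therefore cannot tell a relation between genes from a difference between clusters. For Adipoq and Ucp1, r was 0.98 (permutation p = 4.0e-05, adjusted 0.00028) and Spearman's rho 0.92 (adjusted p = 0.00511). The 2 libraries farthest from the median of Adipoq were 20 and 21. Without them r was 0.81 (exact permutation p = 0.0113, adjusted 0.0527), and rho 0.83, so both stayed high while the adjusted p missed 0.05 with 8 libraries. Adipoq was not related to Myh11 beyond the spread (r = -0.51, adjusted permutation p = 0.366; rho = -0.56, adjusted p = 0.334), nor Myh6 to Adipoq (r = 0.26, adjusted permutation p = 0.662; rho = 0.16, adjusted p = 0.865). For Myh6 and Myh11 r was 0.51 (adjusted permutation p = 0.366; rho = 0.48, adjusted p = 0.463). Without the 2 libraries farthest on the first gene, these r were -0.45, 0.43 and 0.23. The signs of the relations of Adipoq with Sost, Pdgfra and Lyz2 turned when libraries 20 and 21 were left out, and none passed either way. Dbp with Fkbp5 passed by rank but not by Pearson's r, and on Dbp the libraries are clustered as above, so no r is given.

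**Figure D5:**
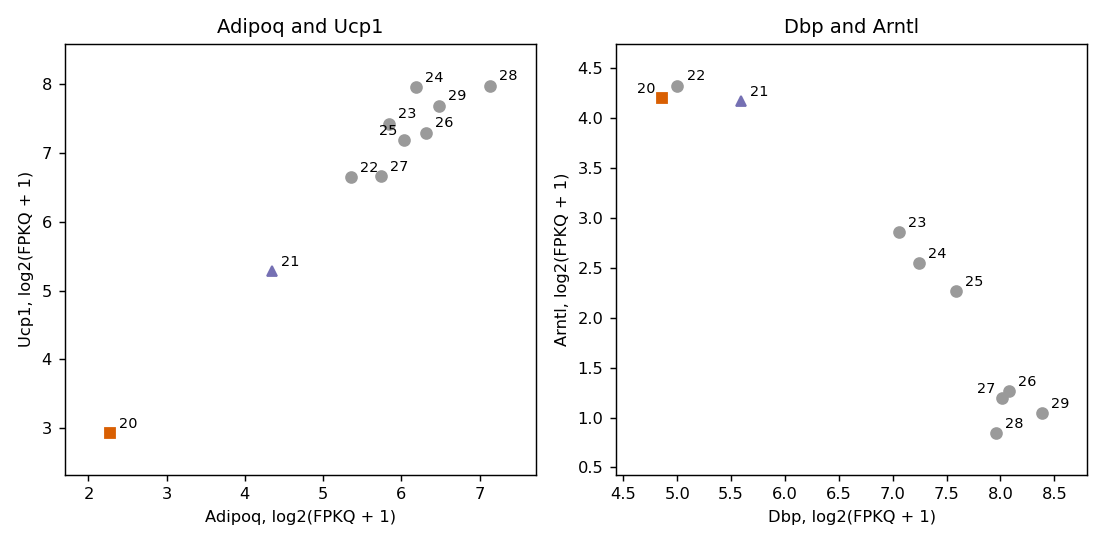
Adipoq against Ucp1 and Dbp against Arntl, both axes in log2(FPKQ + 1), 1 point per wild-type library labelled with its number. Libraries 20 and 21 lie below the other 8 on Adipoq and Ucp1, and on Dbp and Arntl libraries 20 to 22, 23 to 25 and 26 to 29 form separate clusters.

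Likeness to single genes is given as a description. Among the 320 protein-coding variable genes, 103 had an r of at least 0.9 with Adipoq over the 10 libraries, and 29 of them also without libraries 20 and 21. For Myh6 the counts were 17 and 17, for Dbp 14 and 10, for Fkbp5 17 and 1, and for Lyz2, the macrophage gene, 9 and 4. None reached that r with Fos. Over all protein-coding genes with a mean of at least 1, variable or not, the counts over the 10 libraries were 202 for Adipoq, 118 for Fkbp5, 105 for Lyz2, 55 for Dbp, 19 for Myh6 and 8 for Fos, so their order depends on which genes are counted. Within the lists, 14 of 18 other adipocyte genes followed Adipoq at that level (9 also without the 2 libraries), 9 of 16 other heart muscle genes followed Myh6 (9), 6 of 10 other evening genes followed Dbp (6), and 12 of 21 other macrophage genes followed Lyz2 (7). Of 16 brown fat genes 8 followed Adipoq, but only 4 also without libraries 20 and 21. Of 22 fibroblast genes 15 followed Lyz2, but only 5 also without libraries 20 and 21. None of 25 contractile genes followed Myh11. These counts share the same 10 libraries and were made after the values were seen, so they carry no p. An r with Dbp also rests on libraries that are clustered, as described above.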

How the data were processed

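Poly(A)-selected stranded RNA libraries were made from at least 80 ng of RNA with an integrity number of at least 7, per the labels' protocols. Each deposited file gives 1 FPKM-like value, named FPKQ per the file headers, for 51456 gene symbols; the name is not spelled out. The values are scaled by gene length. Tested on low values of genes with 1 transcript, 67.4 to 69.4% lay within 0.05 of a whole number of fragment steps. The submitters' processing notes name GRCm38 and DESeq2 1.10.1 with no role. The aligner, counter and gene annotation were not given in the sources used here. No count model was used.

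Means, SDs and shares were computed from the values as deposited, and spread as the SD of log2(FPKQ + 1) for genes with a mean of at least 1, with Python 3.11.15, numpy 2.4.6 and scipy 1.17.1. A gene was variable at an SD of at least 0.5. Positions came from GENCODE M21 on GRCm38, which matched 45797 symbols once. Models sharing at least 50% of their stretches of 30 bases with mitochondrial transcripts were set apart. Scripts were tested on simulated data.

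The members and the 33 gene lists were chosen with earlier results of these data known. Named genes were the 20 highest, the 20 largest SDs, the 5 smallest SDs of the highest 500, the 4 highest and the most variable of each list, Sost and the genes of the 14 pairs; others named were chosen after their values were seen. So were the separation of libraries 20 and 21, likeness counts, counts by library and the promoter stretches shown. Of the 14 pairs, 1 is not reported here by itself, nor are some listed genes; both stayed in the counts. One listed symbol was matched under an older name. Alternatives were other pseudocounts, filters, scalings and measures of spread, and leaving out libraries.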

Additional observations from a re-analysis of the deposited data

Results flagged for a closer look

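Each of 186 named genes was examined for a library far from the other 9 on log2(FPKQ + 1), by the gap to the next value over the whole range, set against Dixon's 95% critical value. In all, 17 were found. The critical value passes about 1 gene in 20 by chance only for independent genes chosen without regard to their values. Some named genes were chosen for a large SD, which 1 far library raises, and many move together. No expected number can therefore be set beside the 17. Library 20 was far below the rest for 8 of them. Among them were the fat genes Ucp1 (6.60, next 38.0), Cfd (27.5, next 127) and Cox8b (8.86, next 51.8) and the apolipoprotein gene Apoc1 (2.98, next 22.3). The others were the mast cell genes Mcpt4 (1.53, next 4.18), Cma1 (0.521, next 3.26), Tpsb2 (0.518, next 2.66) and Cpa3 (0.734, next 2.97). In each of the 8 the next value was that of library 21. Library 21 was far below the rest for Dcn (399.9, next 692) and C1qa (14.9, next 27.7). Library 24 was far above for the chaperones Hspa8 (1009, next 608) and Hspa1a (38.5, next 21.1) and for Xbp1 (134, next 92.6), a factor of the secretory pathway. Library 28 was far above for the respiratory subunits Cox5b (159.6, next 125) and Cox4i1 (493, next 435). Library 27 was highest for the collagen gene Col1a2 (572, next 518), and library 26 lowest for Mfap4, an elastic fibre glycoprotein (569, next 678).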

How the results depend on the processing

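The 20 highest genes were the same 20 under the median over libraries, both other scalings and without libraries 20 and 21. With the mitochondrial copies left out of the sum, the contractile share was 8.01% in place of 6.77%. The count of variable genes was 438; it was 888 with a pseudocount of 0.1, 248 with a mean of at least 5 and 233 without libraries 20 and 21. With each library left out in turn it ranged from 347 to 472. Of the 20 largest SDs, 8 were shared with a pseudocount of 0.1 and 14 without libraries 20 and 21. With the scaled median absolute deviation in place of the SD, 12 of the 20 were shared and 334 genes passed the threshold. Pairs with an adjusted permutation p under 0.05 were 2 as deposited and 1 without libraries 20 and 21. Without the 2 libraries farthest on the first gene they were again 2, but Dbp with Fkbp5 (adjusted p = 0.0186) took the place of Adipoq with Ucp1 (0.0527). On Dbp the libraries are clustered, so the p of a pair with Dbp does not test a relation between genes. Without libraries 20 and 21, which were also those farthest from the median of Adipoq, r turned to -0.585 for Adipoq and Sost, -0.307 for Adipoq and Pdgfra and -0.471 for Adipoq and Lyz2. It turned to 0.00115 for Sost and Myh11 with equal totals, and for Fos and Hspa1a to 0.00451 without libraries 20 and 21 and 0.0367 without the 2 libraries farthest on Fos. The cause was not tested, and none of these passed as deposited. The shares of promoters with a motif were unchanged with only the bases before the start. No paired analysis was possible because there is 1 group and no number occurs more than once in it. Short models rest on few fragments, which limits their values.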
